A study of Homo sapiens with 10 samples.

Results

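The 55 histone genes of cluster 1 (HIST1H) on chromosome 6 were examined for their transcripts and for the promoter contacts of the fragments that hold them. Members were taken by name and place alone, as every HIST1H entry on chromosome 6 among the 31017 genes of the count table. The starts of all 55 genes lay in 39 HindIII fragments baited for capture, of 21833 baits in the interaction lists. Promoter Capture Hi-C (PCHi-C), in which promoter fragments are pulled out of a Hi-C library with RNA baits, and mRNA sequencing were each made in 2 biological replicates of human embryonic stem cells (ESCs, line H9, untreated) and 2 of neuroectodermal cells (NECs, derived from H9 by 7 days of differentiation as spheres). All samples therefore come from 1 cell line. The question these comparisons address is how the promoter contacts and the expression of genes differ between the pluripotent and the lineage-committed state.

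Histones package DNA into nucleosomes: H2A, H2B, H3 and H4 form the core particle, and H1 binds the linker DNA between particles. Most genes of cluster 1 are replication-dependent, that is, they are transcribed when DNA is copied, and their mRNAs end at a short stem-loop that binds the protein SLBP, without a poly(A) tail. Their promoters are known to gather in the nucleus at histone locus bodies, where the factor NPAT and the 3′ end processing machinery are concentrated. The RNA-seq libraries here were made from polyadenylated RNA, so the counts leave out most replication-dependent histone mRNA.

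Reads counted on genes totalled 19234087 to 25356382 per RNA library, and the ESC libraries shared 1 lane and the NEC libraries another, so lane and cell type cannot be told apart. The cell types were checked by marker lists: 8 of 9 tested pluripotency markers were called lower and 9 of 10 neuroectoderm markers higher in NECs, where 6 of 10 neural crest markers were also higher and 1 was lower, and 8 of 9 mesendoderm markers were lower. Summed, neural crest markers differed between NEC libraries (212 in replicate 1 and 55.1 in replicate 2, in reads per 1000000 counted) and mesendoderm markers between ESC libraries (90.9 and 216 against 8.61 and 8.59 in NECs). Their part in the HIST1H differences was not tested. The interaction lists held 81168 to 100305 calls per replicate and give no read numbers, so their depth is unknown. NEC replicate 2 stood apart, with the fewest calls in all and the most from HIST1H baits, and the main contact counts are therefore given by replicate beside the merged lists. With 2 replicates against 2, a permutation cannot give a two-sided p under 0.333, and none was run on contacts.

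The genes fell into 3 subclusters separated by more than 300 kb without a HIST1H start. Subcluster 1 (GRCh37, chr6:25726466-26288843) held 34 genes on 24 baits, subcluster 2 (chr6:27099102-27115524) 5 genes on 3 baits and subcluster 3 (chr6:27770375-27864923) 16 genes on 12 baits. The gaps between them measured 810 and 655 kb. By family there were 6 H1, 12 H2A, 15 H2B, 10 H3 and 12 H4 genes. The pair of HIST1H2AA and HIST1H2BA, testis histone genes, stood 278 kb upstream of the other baits of subcluster 1.

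The stem-loop is shown first because it is the sequence that members of every family share at their 3′ ends. It was searched in the GRCh37 genome within 150 bases after each annotated coding end on the gene's strand as 16 bases that begin with GG, hold TT at positions 7 and 8 and end with CC, with the first 6 bases pairing with the last 6 and 1 G-T pair allowed. Coding ends were found for 52 of the 55 genes, and 49 of these held a match, 26 to 66 bases (median 40) after the coding end. Among 18766 other protein-coding genes, 0.149% held one. Only 6 forms occurred, and the most frequent stood in 30 genes. An example of each form follows, 5′ to 3′ on the gene's strand, with the match in capitals and 5 bases of flank in lower case.
HIST1H2AC (chr6:26124897-26124912, plus strand; form of 30 genes): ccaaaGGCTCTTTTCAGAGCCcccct
HIST1H4J (chr6:27792237-27792252, plus strand; 8 genes, all H4): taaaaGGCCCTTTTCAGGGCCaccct
HIST1H2BK (chr6:27114145-27114160, minus strand; 7 genes): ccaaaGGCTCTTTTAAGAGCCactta
HIST1H4K (chr6:27798956-27798971, minus strand; 2 genes, both H4): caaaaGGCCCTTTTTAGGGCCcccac
HIST1H2AG (chr6:27101294-27101309, plus strand; 1 gene): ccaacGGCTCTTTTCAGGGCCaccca
HIST1H2AK (chr6:27805663-27805678, minus strand; 1 gene): aaaaaGGTTCTTTTCAGAGCCaccta
All 10 matched H4 genes carried a stem closed by GGCCC and GGGCC, and no matched H1 or H3 gene did. No match was found for HIST1H3E, HIST1H2BI and HIST1H4L, which says only that these letters are not in the window.

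Although nearly all members carried the stem-loop, their records in the gene set did not all end there. In 38 of the 49 genes the record ended within 100 bases of the stem-loop, and in 11 it ran further, by 8072 bases in HIST1H2BK and by 14424 in HIST1H2AC. A polyadenylation signal, AATAAA, stood in the last 50 bases of the record in 7 of the 11 longer records and in 2 of the other 38. The 11 genes held 52.8% and 56.5% of HIST1H reads in the ESC libraries and 59.7% and 58.4% in the NEC libraries. Their median was 108 reads summed over the 4 libraries (range 2 to 929), against 15.5 (range 0 to 709) for the 38. Longer records also cover more sequence, so these are numbers of reads and not levels per length. HIST1H1C, a linker histone gene with 709 reads, was the most read of the genes whose record ended at the stem-loop.

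H2A and H2B genes commonly stand head to head and are transcribed away from a shared interval. There were 10 such pairs with starts less than 400 bases apart, with intervals of 189 to 346 bases, and in 8 of them both starts lay in the same bait. Between the starts, the octamer ATTTGCAT (the site of POU factors, known from H2B promoters) was found on either strand in 8 of the 10, TATAAA in 6 and CCAAT in all 10. The intervals of the pairs with the most reads are printed below, on the plus strand of GRCh37, because each joins a gene with many reads to one with few. Capitals mark these motifs on either strand, and TATAAA and its reverse TTTATA can overlap each other.
HIST1H2BC and HIST1H2AC (chr6:26124155-26124372): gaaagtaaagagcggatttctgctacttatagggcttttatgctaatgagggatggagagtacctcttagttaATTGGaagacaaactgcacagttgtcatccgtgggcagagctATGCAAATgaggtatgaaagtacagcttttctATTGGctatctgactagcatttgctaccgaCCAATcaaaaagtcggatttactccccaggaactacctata
HIST1H2BK and HIST1H2AH (chr6:27114620-27114860): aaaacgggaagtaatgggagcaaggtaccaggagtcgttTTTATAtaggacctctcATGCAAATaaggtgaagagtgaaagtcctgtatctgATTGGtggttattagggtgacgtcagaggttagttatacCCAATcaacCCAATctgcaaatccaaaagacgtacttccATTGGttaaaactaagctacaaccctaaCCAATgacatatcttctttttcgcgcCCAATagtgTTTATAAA
Across the 4 libraries HIST1H2BC had 39 reads and HIST1H2AC 791, and HIST1H2BK had 929 and HIST1H2AH 16. In each pair the gene with many reads had a record that ran past the stem-loop to an AATAAA. The record of HIST1H2BC also ran 8571 bases past its stem-loop but without that signal at its end, and the record of HIST1H2AH stopped 23 bases before the stem-loop.

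The same motifs were counted in RefSeq promoters (GRCh38.p14, 250 bases before to 50 after the start), in which 50 of the 55 genes were matched. The octamer stood in 22 of the 50, in 9 of 11 H2A, 12 of 15 H2B, 1 of 8 H3, 0 of 6 H1 and 0 of 10 H4 promoters, against 1.72% of 27255 other promoters. TATAAA stood in 33 of the 50 against 11.9% of the others. CCAAT stood in 43 of the 50 against 35.6%, and the 7 without it were all H4 promoters. Head-to-head genes share most of their window, so these promoters are not independent of each other.

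Little polyadenylated HIST1H RNA was counted in either cell type. The 55 genes together had 832 and 1599 reads in the ESC libraries and 961 and 1354 in the NEC libraries, that is 43.3 and 63.1 against 46.2 and 55.7 RPM (reads per 1000000 counted on genes). The ranges overlapped. For comparison, 12 genes of histone variants and replication-independent histones, such as H3F3A and H2AFZ, whose mRNAs carry poly(A) tails, summed to 2448 to 3780 RPM. Of the 55 genes, 7 had no read in any library (HIST1H2AA, HIST1H2BA, HIST1H1T, HIST1H2BB, HIST1H3C, HIST1H4F and HIST1H4G, of which the first 3 are known from testis). These were 12.7% of the members, a smaller share than the 21.5% of all genes of the count table without a read. In all, 16 members had 3 reads or fewer in every library. No read of a gene allows up to 3 counts in each library, which covers counting error only. Only HIST1H1C, HIST1H2AC and HIST1H2BK had over 100 reads in at least 1 library, and these 3 held 46.0% to 55.8% of HIST1H reads.

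Between cell types, the H2B gene HIST1H2BK and the linker histone gene HIST1H1E were higher in NECs and the H2A gene HIST1H2AC was lower, and only HIST1H1E changed by more than the fold limit. The H3 gene HIST1H3G was lower by the main test alone or with DESeq2's size factors, and by no other alternative. A gene was called when edgeR's quasi-likelihood test over 17564 genes gave an adjusted p (Benjamini-Hochberg) below 0.05 together with a log2 fold change beyond 1.5 in either direction. By this rule 1 of the 21 tested members was called higher and 0 lower, where 11.4% of all tested genes were called higher and 9.68% lower (21% in all). At an adjusted p under 0.05 alone, 2 members were higher and 2 lower, against 31.5% and 29.7% of all tested genes (61.1% in all). At an unadjusted p under 0.05 there were 4 higher and 5 lower, against 33.8% and 32% of all tested genes. DESeq2 called 0 members higher and 1 lower (HIST1H2AC), against 7.52% and 6.7% of the 24360 genes it tested. In CPM, both NEC libraries stood above both ESC libraries in 5 of the 21 members, against 42.8% of all tested genes, and below them in 9, against 41%. The median SE of a log2 fold change was 0.41 for the 21 genes and 0.15 for all tested genes. Here and below, SE was derived from edgeR's test, as the absolute log2 fold change divided by the square root of F. It is not a separately fitted standard error and may be too small at low counts. DESeq2's own standard error was 1.31 for HIST1H1E and 0.96 for HIST1H3G. Within the range of average expression of the 21 genes, 34.8% of 6406 tested genes were called in either direction. The other 34 members did not pass the filter on low counts.

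Among the linker histone genes, HIST1H1E (H1.4) had 2 reads in each ESC library and 21 and 11 in the NEC libraries. The groups did not overlap, with a log2 fold change of 2.86 ± 0.67 (SE) and an edgeR adjusted p of 0.0100. The ratio of the summed reads, relative to library sizes scaled by TMM, was 7.58, with a counting interval of 2.69 to 29.5 at 95%. The call was lost by DESeq2 (adjusted p = 0.063) and without ESC replicate 2 (edgeR adjusted p = 0.077) or NEC replicate 1 (edgeR adjusted p = 0.051). HIST1H1C (H1.2) had 145 and 287 reads in ESCs and 145 and 132 in NECs, and its log2 fold change of −0.68 (SE 0.26) had an edgeR adjusted p of 0.058. Leaving out 1 library moved it from −0.35 (edgeR adjusted p = 0.371, without ESC replicate 2) to −0.96 (edgeR adjusted p = 0.0174, without ESC replicate 1). HIST1H1D, below the filter, had 1 and 2 reads in ESCs and 9 and 8 in NECs.

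Of the H2A genes, HIST1H2AC had 186 and 393 reads in ESCs and 101 and 111 in NECs, that is 12.9 ± 4.27 and 4.61 ± 0.16 CPM (as RPM, but with library sizes scaled by TMM, given as mean ± SD with n = 2 throughout). Every ESC value was above every NEC value, and the log2 fold change was −1.49 (SE 0.26, edgeR adjusted p = 0.0032). This falls just short of the limit of 1.5, which it passed with DESeq2's size factors, by DESeq2's test and without ESC replicate 1 or NEC replicate 1, with values of −1.51 to −1.81, while it was −1.10 without ESC replicate 2. HIST1H2AG had 46 and 87 reads in ESCs and 50 and 92 in NECs, a difference smaller than that between replicates (log2 fold change 0.02, SE 0.33). HIST1H2AM and HIST1H2AE had 5 to 22 reads per library and edgeR adjusted p values of 0.197 and 0.582. The record of HIST1H2AM overlaps that of HIST1H3J on the same strand.

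Of the H2B genes, HIST1H2BK had 64 and 212 reads in ESCs and 273 and 380 in NECs, or 5.98 ± 3.67 and 14.1 ± 1.86 CPM. The ESC replicates differed from each other by more than the nearest ESC and NEC values did, and the log2 fold change was 1.22 (SE 0.39, edgeR adjusted p = 0.0325). It was 2.05 without ESC replicate 2 and 0.69 without ESC replicate 1, and the edgeR adjusted p was 0.0771 without NEC replicate 2. Its record overlaps that of HIST1H4I on the other strand, and strand was not used in counting, so reads in the overlap cannot be told apart. HIST1H2BD had 40 and 58 reads in ESCs and 72 and 86 in NECs (log2 fold change 0.61, SE 0.25), and HIST1H2BH had 31 and 34 against 46 and 71 (log2 fold change 0.75, SE 0.30). In both genes the groups did not overlap, with edgeR adjusted p values of 0.068 and 0.072. HIST1H2BJ went the other way, with 17 and 35 reads against 11 and 15 and a log2 fold change of −1.05 with an SE of 0.39 (edgeR adjusted p = 0.053).

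The 3 tested H3 genes had 50 to 56 reads each over the 4 libraries. HIST1H3G had 12 and 22 reads in ESCs and 7 and 9 in NECs, and its log2 fold change of −1.14 (SE 0.41) had an edgeR adjusted p of 0.048. This was 0.0697 with the replicate block and 0.122 to 0.374 on leaving out 1 library, and 0.391 by DESeq2. HIST1H3H and HIST1H3J had log2 fold changes of −0.88 (SE 0.54) and −0.39 (SE 0.45), and their groups overlapped. None of the 4 tested H4 genes passed the test, and in HIST1H4J and HIST1H4K the groups overlapped. HIST1H4I had 43 and 59 reads in ESCs and 27 and 50 in NECs, which overlap as reads but not in CPM (2.28 and 2.39 against 1.26 and 2.03). HIST1H4H had 25 and 36 reads against 21 and 26, a log2 fold change of −0.45 (SE 0.30). HIST1H4J and HIST1H4K have the same coding sequence, letter for letter in every stretch of 50 bases, so reads there could have come from either gene. Stretches of that length were shared with another histone gene by 22 of 52 members, and by 11 of the 21 tested ones.

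Over the 21 tested genes the median log2 fold change was −0.39, with 7 above 0 and 14 below, against 0.01 over all tested genes. Over the same genes it was −0.06 without NEC replicate 1 and −0.80 without NEC replicate 2, where 20 of them could be tested. Among 20 genes of DNA replication and S phase, 3 were higher and 9 lower in NECs at an edgeR adjusted p under 0.05, 0 were called past the fold limit, and their summed level went from 4052 and 4056 RPM in ESCs to 3298 and 3712 in NECs. The part of this in the HIST1H values was not tested. Of 16 genes for histone pre-mRNA processing and histone gene transcription, 3 were higher and 6 lower at that adjusted p. Of 16 histone chaperone genes 3 were higher and 3 lower, and in both lists none was called past the fold limit. Over all tested genes, 31.5% were higher and 29.7% lower at that adjusted p (61.1% in all), and 21% were called. Over both directions at that adjusted p, the S phase and processing lists were thus near the share of all genes. By direction the S phase list had a smaller share higher and a larger share lower than all genes. None of these lists held a called gene.

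**Figure D1:**
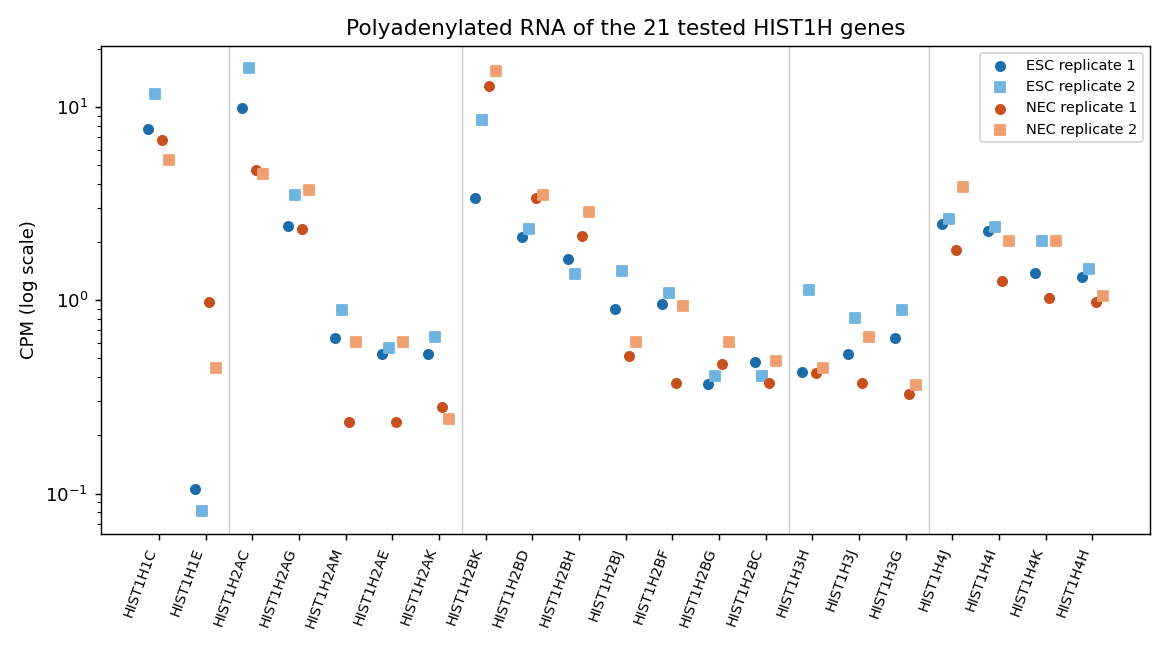
CPM (log axis) of the 21 tested HIST1H genes in each of the 4 RNA-seq libraries, grouped by family from H1 on the left to H4 on the right, with each point 1 library. Both NEC points stand above both ESC points in 5 genes, HIST1H1E among them, and below in 9, HIST1H2AC among them, and in the other 7 they overlap.

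Other histone genes moved in both directions. For comparison, 31.5% of all tested genes were higher and 29.7% lower at an edgeR adjusted p under 0.05, and 21% were called. Of the 12 histone variant genes, 9 were higher and 3 lower at an edgeR adjusted p under 0.05, and 1 was called: H3F3C, a retrocopy that encodes an H3.3-like histone, had 751 and 926 reads in ESCs and 85 and 98 in NECs (log2 fold change −3.28). Of 10 tested genes of the other histone clusters 2 were called. HIST2H2BE on chromosome 1, an H2B gene with polyadenylated transcripts, had 43 and 54 reads in ESCs and 199 and 132 in NECs (log2 fold change 1.71), and HIST4H4 had 22 and 39 against 9 and 8 (log2 fold change −1.88).

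In the PCHi-C lists, in contrast to their few reads, HIST1H promoters were among the most connected baits, and in the merged lists mostly with each other. A promoter-interacting region (PIR) is the fragment that a bait was called with, and calls are pairs with a CHiCAGO score of at least 12, a minus log p that is weighted by distance. In the merged lists, made by the authors from both replicates of a cell type, the 39 baits had 1080 PIRs in ESCs and 1808 in NECs. By replicate there were 1144 and 1102 against 1579 and 2081, so both NEC values lay above both ESC values and the NEC replicates were far apart. The median bait had 24 merged PIRs in ESCs against 44 in NECs (26 and 27 against 39 and 52 by replicate), where the median over all baits with a PIR was 3 or 4 in every list. Of the baits with at least 30 PIRs, 17 of 275 were HIST1H baits in ESCs and 31 of 260 in NECs. By replicate these were 18 of 101 and 17 of 59 in ESCs, and 28 of 116 and 37 of 58 in NECs.

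In the merged lists the PIRs were largely other HIST1H baits: 61.6% of them in ESCs and 56.7% in NECs. Baits of any kind made up 31.6% of the merged PIRs of all baits in both cell types. By replicate these shares were 53.2% and 57.9% in ESCs and 48.1% and 52.2% in NECs for HIST1H baits. They were 27.6% to 32.5% for baits of any kind over all baits. In the merged lists most of the other PIRs were fragments without a bait lying inside a subcluster. Thus 84.4% and 85.6% of merged cis PIRs fell within the bounds of the 3 subclusters. By replicate this was 77.4% and 77.0% in ESCs and 75.8% and 80.1% in NECs. The baits shared their PIRs, which came to 169 distinct fragments in ESCs and 178 in NECs, and are not independent of each other. Merged PIRs of HIST1H baits were called in both replicates in 59.1% of cases in ESCs and 61.3% in NECs, against 22.9% and 21.1% over all baits.

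Counted once whichever end it was called from, 409 of the 741 possible pairs of HIST1H baits (55.2%) were called in ESCs and 587 (79.2%) in NECs. The replicates called 51.6% and 54.0% in ESCs and 64.0% and 83.0% in NECs. Pairs crossing between subclusters made up 231 of the 409 in ESCs and 337 of the 587 in NECs, and numbered 237, 227, 308 and 358 in ESC replicates 1 and 2 and NEC replicates 1 and 2. Subclusters 1 and 3, which lie farthest apart, were joined by 153 of 288 possible pairs in ESCs and 241 in NECs. Subcluster 2 was joined to subcluster 1 by 49 and 63 of 72 pairs, and to subcluster 3 by 29 and 33 of 36. Median merged scores of pairs within a subcluster were 19.99 in ESCs and 20.6 in NECs, and those of pairs between subclusters 19.7 and 30.9. The bait of HIST1H2AA and HIST1H2BA had no HIST1H partner in any list and 2 to 5 PIRs.

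**Figure D2:**
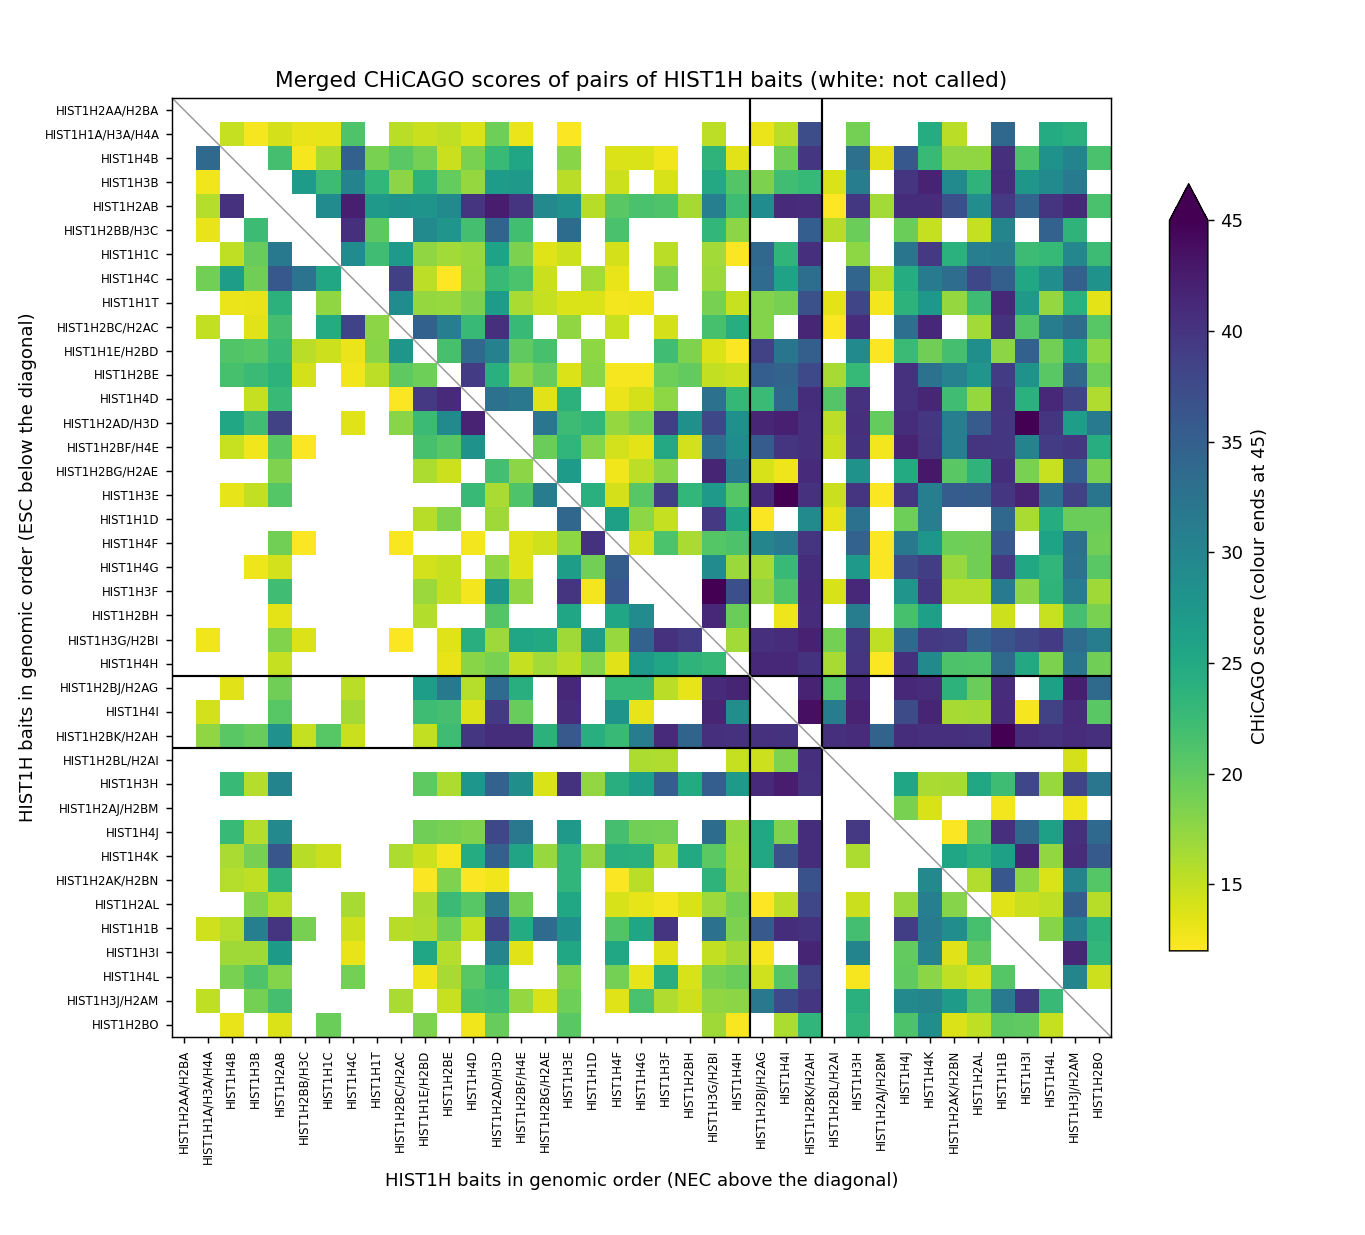
CHiCAGO scores of pairs of HIST1H baits in the merged lists, with the 39 baits in genomic order on both axes, ESCs below and NECs above the diagonal, black lines between the subclusters and white for pairs not called. Called pairs fill the blocks between subclusters as well as those within them, more densely in NECs, and the row of the testis genes HIST1H2AA and HIST1H2BA is empty.

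The 23 other baits between the outermost HIST1H baits, such as those of the butyrophilin, SLC17 and zinc finger genes, took little part. Of 897 possible pairs of a HIST1H bait and one of these, 4.01% were called in ESCs and 5.13% in NECs. Among the replicates the share was 4.01% and 5.80% in ESCs and 6.24% and 10.8% in NECs. The bait of HFE, an iron regulator gene that stands between HIST1H1C and HIST1H4C, had 8 PIRs in the merged ESC list and 13 in the NEC one, with 7 and 11 HIST1H partners, and it had the most such partners among the 23 baits in both merged lists. Pairs of these 23 baits with each other went the other way, from 17.4% of 253 in ESCs to 12.3% in NECs (15.02% and 12.6% against 11.1% and 7.51% by replicate). Over all baits, called pairs on the same chromosome numbered 27153 in ESCs and 26454 in NECs. By replicate there were 24513 and 25969 against 25988 and 21692, so NEC replicate 2 had the fewest.

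Contacts between HIST1H baits did not thin out with distance as other contacts did. At 1.5 to 2 Mb, 55.5% of 272 possible HIST1H pairs were called in ESCs and 87.1% in NECs, against 0.19% and 0.26% of 108052 other pairs of baits of the genome at that distance. Single replicates called 57.7% and 55.9% of the HIST1H pairs in ESCs and 79.4% and 93.0% in NECs, and more of the other pairs than the merged lists did, 0.65% and 0.78% against 0.83% and 0.60%. Up to 0.1 Mb the merged shares were 68.0% and 80.1% against 25.8% and 24.4%. By replicate the HIST1H shares there were 53.4% and 64.1% in ESCs and 55.8% and 76.2% in NECs, which overlap. At 0.1 to 0.5 Mb, where pairs lie mostly within subcluster 1, HIST1H shares were lowest, at 28.8% in ESCs and 64.4% in NECs. Of all called pairs of baits over 1 Mb apart on a chromosome, 165 of 1003 (16.5%) in ESCs and 259 of 1447 (17.9%) in NECs were HIST1H pairs. In the replicates, which held more such pairs of other baits, the shares were 6.10% and 4.86% in ESCs and 6.14% and 9.76% in NECs.

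**Figure D3:**
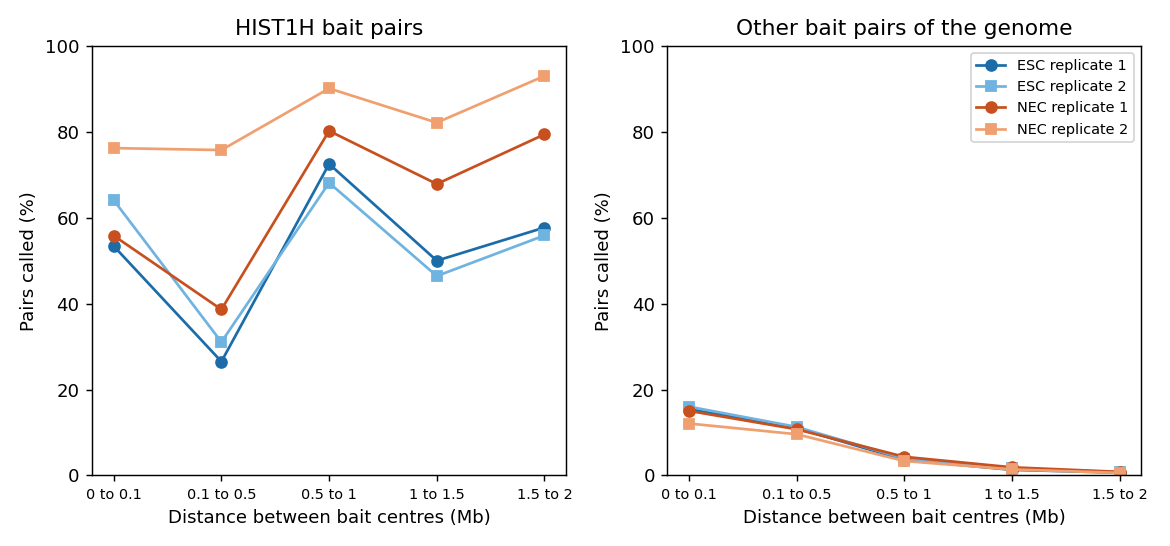
Share of possible pairs of baits that were called, in percent, by distance between bait centres in Mb, for HIST1H pairs (left) and all other pairs of baits on the same chromosome (right), with 1 line per replicate. HIST1H shares stay above 26% in every bin and replicate and are highest in NEC replicate 2, while other pairs fall below 1% at 1.5 to 2 Mb.

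Pairs called in all 4 replicates numbered 290, of which 183 joined different subclusters. HIST1H4I with HIST1H3H, 672 kb apart, had the highest merged score in ESCs (42.5) and replicate scores of 63.4 and 66.6 (ESC) against 68.6 and 88.0 (NEC). HIST1H2BK/HIST1H2AH with HIST1H3I, 725 kb apart, had 53.1 and 42.9 against 42.9 and 68.0. In NECs the highest merged score was that of HIST1H3E with HIST1H4I (66.3, 878 kb), with replicate scores of 41.3 and 35.5 against 43.5 and 58.6. HIST1H2AD/HIST1H3D with HIST1H3I, 1641 kb apart across subclusters 1 and 3, scored 33.2 and 23.1 in ESCs and 47.7 and 70.6 in NECs. In the last 2 pairs both NEC scores lay above both ESC scores, and in the second the groups overlapped.

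Between cell types the HIST1H contacts were more numerous in NECs, and pairs between subclusters scored higher there. Median scores of pairs between subclusters were 21.05 and 18.96 in ESC replicates against 25.1 and 31.8 in NEC replicates. Within a subcluster they were 16 and 16.42 against 16.37 and 17.57, which overlap. Pairs within subcluster 1 numbered 111 and 135 against 136 and 213, and those within subcluster 3 numbered 32 and 36 against 28 and 42. In 34 of the 39 baits both NEC replicates had more PIRs than both ESC replicates, and in 0 both had fewer, where 13.2% of all baits with a call were higher and 12.9% lower by that rule. Among baits with a mean of at least 10 PIRs it was 34 of 37 HIST1H baits, against 20.9% of all such baits. Without NEC replicate 2, 35 HIST1H baits had more PIRs in the remaining NEC replicate than in both ESC replicates. Leaving out a replicate makes the rule easier to meet, and its share over all baits was not computed. Of the 647 pairs of HIST1H baits called in at least 1 replicate, 71 were called in both NEC replicates and neither ESC replicate, against 3.02% of all such pairs of baits, and 52 of the 71 crossed between subclusters. The reverse held for 6 pairs, against 4.08% of all pairs, and all 6 lay within a subcluster. Of the 290 pairs called in all 4 replicates, 139 had both NEC scores above both ESC scores, against 16.5% of all pairs of baits called in all 4, and 14 had both below, against 18.2%. Median scores of the 290 pairs were 19.99 and 19.4 in ESCs and 25.3 and 31.1 in NECs, while those of 3956 other pairs called in all 4 replicates ran from 15.3 to 16.96.

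The differences were uneven along the cluster. The bait of HIST1H1C went from 15 and 23 PIRs in ESCs to 33 and 63 in NECs by replicate, and that of HIST1H4C had 16 and 25 against 44 and 70. The bait of HIST1H1T, a testis linker histone gene without a read in any library, went from 8 and 13 to 19 and 56. These 3 neighbours showed NEC values above every ESC value, with wide gaps between the NEC replicates. The bait of HIST1H2BK and HIST1H2AH had the most PIRs in both merged lists (90 and 96), and its replicates were close to each other at 78 and 65 in ESCs and 79 and 84 in NECs. It was paired with 34 of the other 38 HIST1H baits in ESCs and 37 in NECs. Next in merged ESC calls were the baits of HIST1H3H and HIST1H1B, with 53 PIRs each, and in NECs those of HIST1H2AD/HIST1H3D with 88 and HIST1H3H with 83. At the other end, the bait of HIST1H2AJ and HIST1H2BM had 28 PIRs in NEC replicate 2 and 0 in each of the other 3 lists of replicates. Its 16 merged NEC calls as a bait thus rest on 1 replicate. As a PIR of other HIST1H baits it did have partners there: 2 and 1 in ESC replicates 1 and 2, and 3 in NEC replicate 1. The bait of HIST1H4H, at the downstream edge of subcluster 1, had 42 and 45 in ESCs and 35 and 47 in NECs, which overlap.

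**Figure D4:**
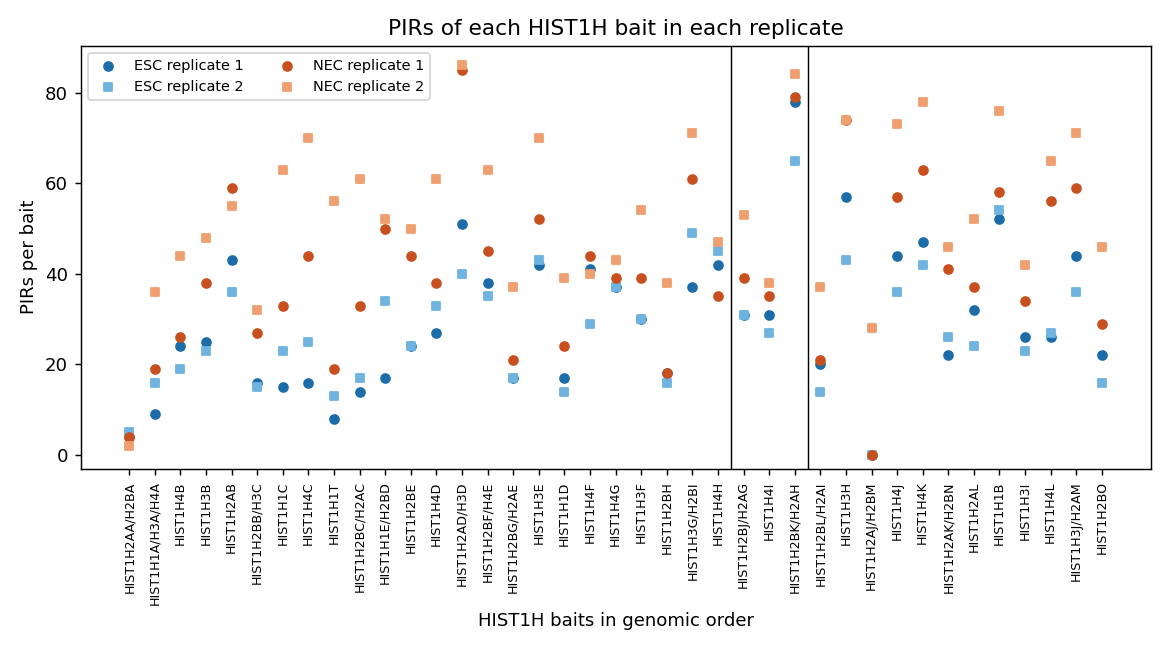
Number of PIRs of each of the 39 HIST1H baits in genomic order, with 1 point per replicate and vertical lines between the subclusters. In 34 baits both NEC points stand above both ESC points, and NEC replicate 2 is the highest in most.

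Merged PIRs were counted as shared when bait and fragment were the same in both cell types. There were 910 shared PIRs of HIST1H baits, which is 84.3% of those in ESCs (Wilson interval at 95%, counting error only, 82.0% to 86.3%) and 50.3% of those in NECs (48.0% to 52.6%). Over all other baits the shares were 43.8% and 44.2%.

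Contacts were also compared with reads. The 9 baits whose genes had 3 reads or fewer in every library had median merged PIR numbers of 22 (ESC) and 34 (NEC), and the other 30 baits had 26 and 48. By replicate these medians were 24, 19, 27 and 43 for the 9 baits and 28.5, 28.5, 39 and 53.5 for the other 30. The 5 baits whose genes had no read in any library ranged widely. In merged ESC and NEC calls they had 3 and 2 PIRs (HIST1H2AA/HIST1H2BA), 12 and 26 (HIST1H2BB/HIST1H3C), 8 and 39 (HIST1H1T), 34 and 47 (HIST1H4F) and 32 and 33 (HIST1H4G). Since the libraries miss mRNA without a poly(A) tail, a lack of reads here does not show a lack of transcription.

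Of the 39 HIST1H baits, 15 in NEC replicate 1, 16 in replicate 2 and 5 in the merged NEC list were called with the histone genes of cluster 2 on chromosome 1 (HIST2H, chr1:149754245-149862569), and none in ESC lists. Such pairs between chromosomes numbered 16 in NEC replicate 1, 22 in its replicate 2 and 0 in either ESC replicate. The merged lists held 6 in NECs and 0 in ESCs. With any partner, the HIST2H interval took part in 39 and 34 pairs between chromosomes in NEC replicates 1 and 2. These counts were 8 and 5 in ESC replicates 1 and 2, and 13 and 0 in the merged NEC and ESC lists. Pairs of the interval with partners outside HIST1H were thus also more numerous in NECs. All pairs of fragments on different chromosomes came to 760 in each ESC replicate and to 785 and 646 in NECs, so the cluster pairs were 2.04% and 3.41% of those in NECs. Of 34 distinct pairs, 4 were called in both NEC replicates: HIST1H3F with HIST2H2AA3 (15.6 and 13.7), and HIST1H2AD/HIST1H3D (12.1 and 25.6), HIST1H4F (24 and 12.5) and HIST1H3J/HIST1H2AM (14.5 and 18.9) with the fragment of HIST2H2BE. That fragment took part in 8 of the 16 and 10 of the 22 pairs. The share of all pairs between chromosomes called in both NEC replicates and neither ESC replicate was not computed. HIST2H2AA3 and HIST2H2AA4 are near-identical copies, so contacts assigned to either are uncertain.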

How the data were processed

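RNA-seq reads were trimmed, aligned to GRCh37 with TopHat2 2.0.8b and counted per gene on the Ensembl v70 gene set without regard to strand by the authors, who deposited raw counts without normalization. PCHi-C reads were mapped to GRCh37 and filtered with HiCUP (Bowtie 1.0.0 is named in the submitters' processing notes), and the deposited lists hold CHiCAGO scores of at least 12 per HindIII fragment pair, per replicate and merged; ESC replicate 2 combines technical replicates. Conventional Hi-C was not analysed here.

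Counts were tested with edgeR 4.0.16 (TMM, filterByExpr minimum count 10, quasi-likelihood, prior count 0.125), and DESeq2 1.42.0, the authors' tool, was an alternative. On simulated counts of 17564 genes, 200 of 200 changed genes were recovered with 5 false calls. The changed genes were drawn from those with higher mean CPM, and all were given changes beyond the fold limit. This check therefore does not measure how often smaller changes, or changes at the low counts of most HIST1H genes, are found. Contacts and sequences were analysed in Python 3.11.15 with pandas 2.3.3, scipy 1.17.1 and matplotlib 3.10.9. A gene's bait holds its start. Coding ends were taken from GENCODE v44lift37, by Ensembl identifier for 24 members and by current symbol and overlapping position for 28. Promoters came from RefSeq, GRCh38.p14.

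Named were, per family, the 4 tested genes with the highest mean CPM and all called ones, the 3 baits with most merged PIRs, the 5 highest-scoring pairs per cell type and in all 4 replicates, of which examples are printed, and up to 2 called genes with the largest change per other histone list. Other features were named after their values were seen. Members and lists were chosen with earlier results of these data known.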

Additional observations from a re-analysis of the deposited data

How the results depend on the processing

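Of 152 recomputed log2 fold changes of 17 named genes, 137 kept their direction and side of the call, 3 lost the call (HIST1H1E), 5 gained it and 7 changed sign, none of the latter called. The sign changed for HIST1H2AG with DESeq2's size factors (−0.00042), and leaving out 1 library gave −0.36 to 0.32 for HIST1H2AG, −1.22 to 0.15 for HIST1H2AE, −0.49 to 0.59 for HIST1H4J and −0.74 to 0.24 for HIST1H4K. Genes called higher numbered 0 by DESeq2's test and 2 without a filter (the second is HIST1H1D), and those called lower 1 by DESeq2's size factors and 1 by DESeq2's test. With an adjusted p under 0.05 alone they were 2 and 2. Leaving out 1 RNA library gave 0 to 1 higher and 0 to 1 lower, and medians of −0.80 to 0.15 over 22 to 24 tested members; over the members tested with all libraries they were −0.80 to −0.06. With the replicate number as a block, 1 gene was called higher and 0 lower, the median was −0.39 and 3698 genes of the whole table were called in place of 3697. The numbers did not pair the samples (r = 0.05 between deviations of same-numbered libraries). A score of at least 15 left 655 PIRs in ESCs, with shared shares of 88.7% and 46.6% of ESC and NEC PIRs. Merged calls also made in both replicates left 638 and 1109 PIRs. Counting PIRs within 10 kb as shared gave 95.4% and 82.9%. Single replicates gave 382 to 400 HIST1H pairs in ESCs and 474 to 615 in NECs. Leaving out any PCHi-C replicate, an alternative chosen after seeing the data, left 34 to 37 baits higher in NECs. Leaving one out can only keep or raise this count, and the share over all baits was not computed for it. Baits overlapping any part of a gene were the same 39. The 34 members with too few reads were not tested, and the depth of the contact lists is unknown.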
